A study of Mus musculus with 4 samples.

Results

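The 40 genes described here belong to the folding and secretion machinery of the endoplasmic reticulum (ER), together with its stress sensors and a pair of genes typical of plasma cells. They were taken by gene symbol from the 27179 genes of the table. The rule sets no condition on their values, but the set was drawn up with earlier results of these data known. By role they fall into 2 plasma cell genes, 6 stress sensors and transcription factors, 9 chaperones and co-chaperones around BiP and GRP94, 5 disulfide and proline isomerases, 2 lectin chaperones, 9 genes of ER-associated degradation and 7 subunits of the Sec61 translocon and the translocon-associated TRAP complex. All 40 passed the filter on low values. Their RNA was sequenced in LTi cells, the innate lymphoid cells known as lymphoid tissue inducers, which were sorted from the small intestinal lamina propria as lineage-negative, CD127-positive and CCR6-positive cells lacking KLRG1, NK1.1 and NKp46. The Gata3-KO group holds 2 libraries of Gata3fl/fl-VavCre mice, in which Cre under the Vav promoter acts throughout the blood lineages and not in LTi cells alone, and the Ctrl group holds 2 libraries of Gata3+/+ mice. All mice were of the C57BL/6 strain, and the labels give no age and do not say whether Ctrl mice carried Cre. The labels also do not say whether libraries of a genotype came from separate animals, so the p-values measure only the spread between these libraries, which may be technical.

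Proteins bound for secretion or for the cell surface enter the ER through the Sec61 translocon, are folded there by BiP, GRP94, protein disulfide isomerases and the lectins calnexin and calreticulin, and are sent back to the cytosol for degradation when folding fails. The sensors IRE1 (encoded by Ern1), PERK (Eif2ak3) and ATF6 report misfolded protein and switch on the unfolded protein response. IRE1 splices the Xbp1 messenger into the form that encodes an active factor. PERK raises translation of ATF4 and through it transcription of the gene of CHOP (Ddit3), and cleaved ATF6 enters the nucleus. Plasma cells, which release antibody at a high rate, depend on XBP1 and carry large amounts of this machinery, and the small intestinal lamina propria is rich in plasma cells that make IgA.

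Promoters of many ER chaperone genes share the ER stress element (ERSE), which is CCAAT, 9 bases, CCACG and is known to be read by ATF6 and XBP1 together with NF-Y. A promoter of 250 bases before the gene start was at hand for 33 of the 40 genes (RefSeq, build GRCm38.p6), and 9 of these 33 (27.3%) held an exact ERSE on either strand, against 35 of 27025 genes (0.13%) in the whole promoter table. The 9 genes were Hsp90b1, which held a pair of sites, Derl3, Creld2, Pdia6, Hspa5, Calr, Canx, Dnajc3 and Syvn1. The sites are printed because they are what these 9 promoters share, each written along the motif with the CCAAT and CCACG ends in capitals.
Hsp90b1 distal: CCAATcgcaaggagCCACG
Hsp90b1 proximal: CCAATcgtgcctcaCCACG
Derl3: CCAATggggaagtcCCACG
Creld2: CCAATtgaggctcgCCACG
Pdia6: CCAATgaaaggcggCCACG
Hspa5: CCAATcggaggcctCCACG
Calr: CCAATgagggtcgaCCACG
Canx: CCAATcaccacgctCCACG
Dnajc3: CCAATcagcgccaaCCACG
Syvn1: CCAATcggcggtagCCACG
The Hsp90b1 sites lie at chr10:86705638-86705656 on the minus strand and chr10:86705533-86705551 on the plus strand, and the Derl3 site at chr10:75893242-75893260 on the minus strand. The Creld2 site is at chr15:88819520-88819538 (minus strand), the Pdia6 site at chr12:17266491-17266509 (plus strand) and the Hspa5 site at chr2:34772025-34772043 (plus strand). Those of Calr, Canx, Dnajc3 and Syvn1 are at chr8:84847075-84847093 (plus strand), chr11:50325800-50325818 (minus strand), chr14:118937827-118937845 (plus strand) and chr19:6046532-6046550 (plus strand). They begin between 44 bases (Syvn1) and 212 bases (Hsp90b1, distal) before the gene start.

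The full 250 bases are given for 3 of these promoters, which belong to genes that differ in their results below: Hsp90b1 and Derl3 passed the test and Hspa5 did not. Each reads 5′ to 3′ along its gene and ends at the base before the gene start, with the ERSE in capitals.
Hsp90b1: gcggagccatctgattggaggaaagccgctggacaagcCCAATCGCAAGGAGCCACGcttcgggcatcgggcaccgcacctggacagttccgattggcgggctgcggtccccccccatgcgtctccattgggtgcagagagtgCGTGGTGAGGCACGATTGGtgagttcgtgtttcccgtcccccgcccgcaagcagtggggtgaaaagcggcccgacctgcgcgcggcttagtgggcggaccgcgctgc
Derl3: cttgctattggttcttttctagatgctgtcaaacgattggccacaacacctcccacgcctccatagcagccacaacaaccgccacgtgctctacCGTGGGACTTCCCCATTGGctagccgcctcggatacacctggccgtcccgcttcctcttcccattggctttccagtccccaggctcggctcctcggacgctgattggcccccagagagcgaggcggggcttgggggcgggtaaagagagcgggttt
Hspa5: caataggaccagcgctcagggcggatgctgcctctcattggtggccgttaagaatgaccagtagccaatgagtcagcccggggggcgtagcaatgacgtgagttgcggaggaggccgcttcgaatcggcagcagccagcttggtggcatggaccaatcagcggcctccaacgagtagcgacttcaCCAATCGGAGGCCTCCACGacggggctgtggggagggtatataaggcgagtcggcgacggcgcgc
These windows are chr10:86705445-86705694 (minus strand), chr10:75893148-75893397 (plus strand) and chr2:34771840-34772089 (plus strand). In Hsp90b1 the distal site runs along the gene and the proximal one against it, the Derl3 site runs against its gene, and the Hspa5 site runs along it. Herpud1 held no ERSE but the related ERSE-II, which is ATTGG, 1 base, CCACG. That motif was added to the search after the first results were seen.
Herpud1: ATTGGgCCACG
It lies at chr8:94386377-94386387 on the plus strand, and ERSE-II occurred in 10 of 27025 promoters (0.037%). The XBP1 core, TGACG followed at once by TGG, was found in none of the 33 member promoters, against 0.603% of all promoters, and the ATF4 element (TGATG, 1 base, AA) in 1 of the 33, Herpud1 (3.03%), against 3.91% of all. These matches describe letters in the window and no binding was measured.

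The table holds log2(RPKM + 1) for each library, so levels below are in RPKM (reads scaled to gene length and to library depth) and differences are on the log2(RPKM + 1) scale, Gata3-KO minus Ctrl. The Gata3-KO libraries held 24315878 and 23973995 reads, and the Ctrl libraries 14294708 and 12670034 reads. Gata3 itself measured 34.5 and 23.3 RPKM in Gata3-KO, against 84.3 and 50.7 RPKM in Ctrl, a log2 difference of -1.18 ± 0.36 (SE) with an adjusted p of 0.0914 in limma, so the libraries labelled Gata3-KO still held reads of the gene. These values sum all exons and do not separate a floxed part. Of 14339 genes tested, 1176 (8.2%) passed as higher in Gata3-KO and 98 (0.683%) as lower at an adjusted p under 0.05 in limma. The median gene lay 0.43 higher in Gata3-KO. After scaling by median ratios, which brings the median gene to 0.04, 81 genes (0.565%) were higher and 62 (0.432%) lower. Markers of other cell types were higher in Gata3-KO as well. The 10 B cell markers all passed the test, with a summed level of 456 and 600 RPKM in Gata3-KO against 36.0 and 70.4 RPKM in Ctrl. Of 14 epithelial markers 11 passed, with sums of 2059 and 3084 RPKM in Gata3-KO against 519 and 324 RPKM in Ctrl. Of the T cell, enteroendocrine and plasmacytoid dendritic cell markers 4 of 8, 3 of 3 and 2 of 4 passed as higher, and of 5 myeloid markers tested none did in limma or in limma-voom or had an unadjusted p under 0.05. After median-ratio scaling limma called 0 of the 10 B cell markers, all of which kept an unadjusted p under 0.05, 6 of the 14 epithelial, 0 of the 8 T cell, 0 of the 3 enteroendocrine and 1 of the 4 plasmacytoid dendritic cell markers higher. At an unadjusted p under 0.05 on that scale, 12 of the epithelial, 4 of the T cell, 3 of the enteroendocrine and 2 of the plasmacytoid dendritic cell markers were higher. Among 10 markers of goblet and Paneth cells 6 passed as higher on the deposited scale, and 2, Tff3 and Zg16, after median-ratio scaling. The goblet cell marker Muc2 and the Paneth cell markers Lyz1, Defa24 and Mmp7, named after their values were seen, did not pass in limma. Of 10 LTi markers 2 were lower and none higher on both scales. The LTi markers summed to 1025 and 1476 RPKM in Gata3-KO, against 3691 and 2611 RPKM in Ctrl. In bulk libraries, fewer cells of a type and less RNA per cell cannot be told apart.

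On the deposited scale 10 of the 40 ER and plasma cell genes (25%) were higher in Gata3-KO, against 8.2% of all tested genes. They were Mzb1, Derl3, Edem2, Pdia4, Sdf2l1, Pdia6, Hsp90b1, Sel1l, Creld2 and Sec61b. None of the 40 was lower in limma, where the unadjusted p was under 0.05 for 0 lower and 21 higher genes, and limma-voom on recovered reads also called none lower (0.258% of all genes). That test called Derl3 and Hsp90b1 higher, 2 of the 40, against 1.27% of all genes. With a pseudocount of 0.1 limma called 7 of the 40 higher, against 5.42% of all genes, and with a filter of 5 CPM, which Sec61g did not pass, 16 of 39, against 15.9%. After median-ratio scaling none of the 40 passed in limma in either direction, although 11 were higher and 2 lower at an unadjusted p under 0.05, and the share of all genes called higher was itself down to 0.565%. The median difference of the 40 was 0.87, which is 0.43 above the median gene, and after median-ratio scaling it was 0.28. That scaling lowered the difference of each of the 40 by 0.467 to 0.596. Relative to the median gene, 30 of the 40 lay above it, against 50% of all genes, and after median-ratio scaling 28 lay above 0, against 52.8% of all genes.

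In 34 of the 40 genes both Gata3-KO libraries lay above both Ctrl libraries, where 53.9% of all tested genes did so, and in 2, Ern1 and Atf4, both lay below, where 7.57% of all genes did so. After median-ratio scaling the numbers were 19 above, against 29.8% of all genes, and 5 below, against 25.5% of all genes. At the median of these genes, libraries of a genotype lay close together. The median fold of RPKM + 1 between the Gata3-KO libraries was 1.17 and between the Ctrl libraries 1.21, against 1.23 and 1.3 over all tested genes. Single genes lay further apart. In RPKM, Mzb1 differed 2.46-fold in Gata3-KO and 2.49-fold in Ctrl, and Fkbp11 2.23-fold and 12.6-fold. With 2 libraries a genotype, an exact permutation test of a single gene cannot give a two-sided p below 0.333, so the tests rest on the limma fit across all genes. With any 1 library left out, calls on the deposited scale were lost across all genes and not among the 40 alone. Little is left there to estimate the spread from.

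**Figure D1:**
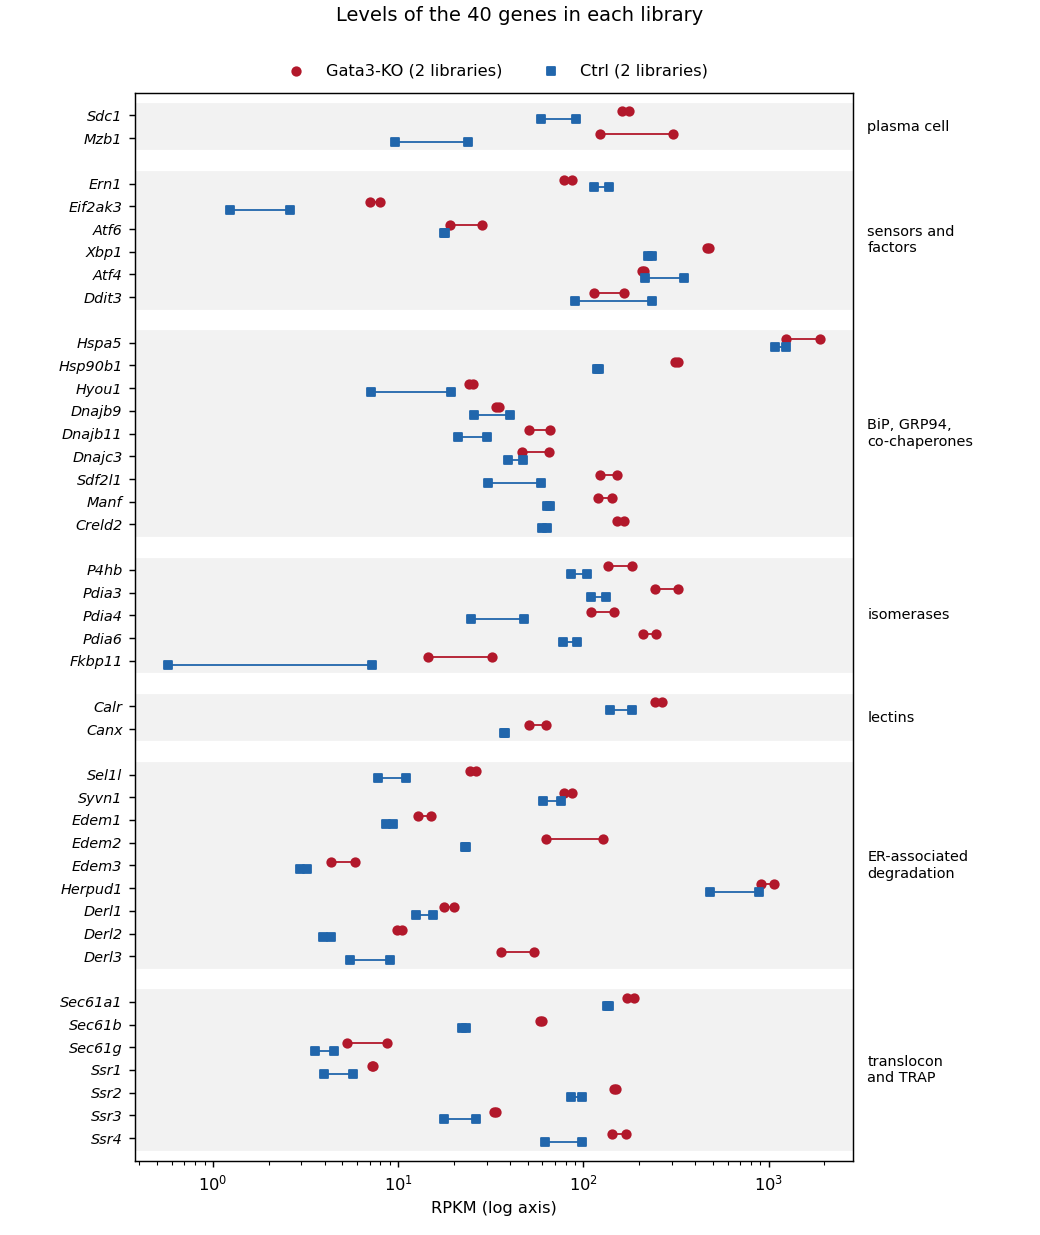
RPKM of each of the 40 genes in every library, on a log axis, grouped by role, with Gata3-KO libraries as red circles above Ctrl libraries as blue squares and a line joining the libraries of a genotype. Both Gata3-KO libraries lie above both Ctrl libraries in 34 of the 40 genes and below them in Ern1 and Atf4. Over all tested genes the shares are 53.9% above and 7.57% below.

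Of the plasma cell genes, Mzb1 differed most among all 40. Mzb1 encodes a BiP cofactor of the ER that aids assembly and secretion of immunoglobulin. It measured 303 and 123 RPKM in Gata3-KO, against 9.57 and 23.9 RPKM in Ctrl. The groups did not overlap, but the libraries of a genotype differed 2.46-fold in Gata3-KO and 2.49-fold in Ctrl. Its log2 difference was 3.58 ± 0.58 (SE, adjusted p = 0.0296 in limma), and 3.0 with an adjusted p of 0.0917 after median-ratio scaling. Without Gata3-KO replicate 1 the difference was 2.93 and without Gata3-KO replicate 2 it was 4.23. Without Ctrl replicate 1 it was 2.97 and without Ctrl replicate 2 it was 4.20. Sdc1 encodes syndecan-1 (CD138), the surface proteoglycan used to mark plasma cells and also carried by epithelial cells. It measured 162 and 175 RPKM in Gata3-KO, against 91.4 and 59.1 RPKM in Ctrl, a difference of 1.18 ± 0.31 that did not pass (adjusted p = 0.0663 in limma) and was 0.59 after median-ratio scaling.

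None of the 6 stress sensors and transcription factors passed the test, neither in limma nor in limma-voom, and 2 were higher with an unadjusted p under 0.05 in limma. Their median difference was 0.15, which is 0.28 below the median gene (-0.28), and the 6 lay on both sides of the median gene. Xbp1, the factor of the secretory programme, measured 479 and 465 RPKM in Gata3-KO, against 236 and 222 RPKM in Ctrl. The groups did not overlap, and the difference of 1.04 ± 0.28 had an adjusted p of 0.0692 in limma. After median-ratio scaling the difference was 0.44 with an adjusted p of 0.287. Gene-level values sum the spliced and unspliced forms of its messenger. Ern1, which encodes the sensor that splices it, lay lower in Gata3-KO without passing the test. It measured 78.3 and 86.3 RPKM in Gata3-KO, against 138 and 114 RPKM in Ctrl, a difference of -0.60 ± 0.27 on the deposited scale (adjusted p = 0.187 in limma) and of -1.20 after median-ratio scaling (adjusted p = 0.0642).

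Genes of the PERK arm lay on both sides of 0. Eif2ak3 itself was low, with 7.99 and 7.0 RPKM in Gata3-KO against 1.23 and 2.62 RPKM in Ctrl, where 79 and 149 reads lay behind the Ctrl values. Its difference of 1.58 ± 0.37 fell short of the threshold (adjusted p = 0.0520 in limma). Downstream of PERK, Atf4 measured 211 and 206 RPKM in Gata3-KO, against 349 and 216 RPKM in Ctrl, so that Ctrl replicate 1 stood above the other libraries (-0.39 ± 0.33, adjusted p = 0.469 in limma). After median-ratio scaling the Atf4 difference was -0.99, with an adjusted p of 0.124 and an unadjusted p of 0.0134, and both Gata3-KO libraries again lay below both Ctrl libraries. Ddit3, the death-associated factor CHOP, measured 115 and 165 RPKM in Gata3-KO, against 233 and 89.7 RPKM in Ctrl, and the Ctrl libraries enclosed the Gata3-KO libraries (-0.07 ± 0.49, adjusted p = 0.940 in limma, and -0.66 after median-ratio scaling). Atf6 measured 18.9 and 28.5 RPKM in Gata3-KO, against 17.6 and 17.9 RPKM in Ctrl, a difference of 0.37 ± 0.30 (adjusted p = 0.446 in limma) that turned to -0.20 after median-ratio scaling.

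**Figure D2:**
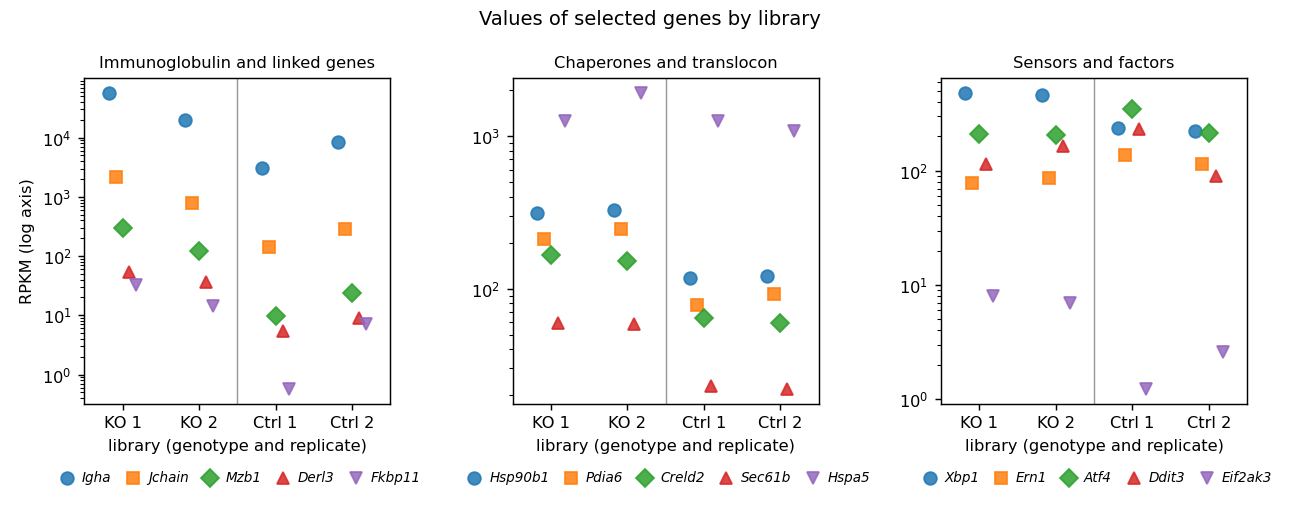
RPKM on a log axis in each library, Gata3-KO left of Ctrl, for immunoglobulin-linked genes (left), chaperones with a translocon subunit (middle) and sensors with their factors (right). Mzb1 and Derl3 follow Igha and Jchain in order, Gata3-KO replicate 1 highest and Ctrl replicate 1 lowest, whereas Hsp90b1, Creld2 and Sec61b are nearly level within each genotype and Ddit3 and Hspa5 overlap between genotypes.

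Among the 9 chaperones and co-chaperones 3 (33.3%) passed as higher in Gata3-KO, against 8.2% of all genes. The most abundant, BiP, did not pass. Hsp90b1, the HSP90 of the ER (GRP94) that folds integrins, Toll-like receptors and immunoglobulin chains, measured 312 and 325 RPKM in Gata3-KO, against 118 and 121 RPKM in Ctrl. Libraries of a genotype nearly coincided, and the difference was 1.41 ± 0.27 (adjusted p = 0.0346 in limma). Sdf2l1, a partner of the ERdj3 co-chaperone, measured 122 and 152 RPKM in Gata3-KO, against 30.7 and 59.0 RPKM in Ctrl (1.66 ± 0.37, adjusted p = 0.0481). Creld2, a secreted and ER-resident protein induced by ER stress, measured 165 and 152 RPKM in Gata3-KO, against 63.7 and 59.4 RPKM in Ctrl (1.35 ± 0.26, adjusted p = 0.0351). After median-ratio scaling the 3 differences were 0.81, 1.07 and 0.76, with both Gata3-KO libraries still above both Ctrl libraries, and the adjusted p in limma lay between 0.116 (Hsp90b1) and 0.207 (Sdf2l1).

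Hspa5, the central Hsp70 chaperone BiP, had the highest level of the 40 genes per length. It measured 1243 and 1897 RPKM in Gata3-KO, against 1243 and 1077 RPKM in Ctrl. The lower Gata3-KO library was level with the higher Ctrl library, so the groups overlapped, and the difference was 0.41 ± 0.36 as deposited and -0.19 after median-ratio scaling (adjusted p = 0.489 and 0.719 in limma). The J-domain co-chaperones of BiP were divided. Dnajb11 (ERdj3), which binds immunoglobulin chains and unfolded substrates, measured 50.8 and 65.6 RPKM in Gata3-KO, against 21.0 and 30.05 RPKM in Ctrl, a difference of 1.17 (adjusted p = 0.0651 in limma). Dnajb9 (ERdj4), which restrains IRE1, measured 33.6 and 35.1 RPKM in Gata3-KO, against 40.1 and 25.5 RPKM in Ctrl, and Dnajc3 (p58IPK) 46.4 and 65.5 RPKM in Gata3-KO, against 46.9 and 39.3 RPKM in Ctrl. Both overlapped on the deposited scale, with differences of 0.10 and 0.35, and after median-ratio scaling both lay below Ctrl in both libraries, with differences of -0.48 and -0.23. Manf, an ER-resident factor that is secreted under stress, was 2.03-fold apart in its means, with 120 and 143 RPKM in Gata3-KO against 63.2 and 66.1 RPKM in Ctrl (adjusted p = 0.0656 in limma). Hyou1, the Grp170 nucleotide exchange factor of BiP, had 24.0 and 25.3 RPKM in Gata3-KO and an uneven 7.17 and 19.3 RPKM in Ctrl.

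All 5 isomerases lay higher in both Gata3-KO libraries than in both Ctrl libraries on the deposited scale, as did 53.9% of all genes. The number was 4 of the 5 after median-ratio scaling, against 29.8% of all genes. On the deposited scale 2 (40%) passed, against 8.2% of all genes. Pdia4 (ERp72), a disulfide isomerase found in complexes with BiP and GRP94, measured 147 and 109 RPKM in Gata3-KO, against 24.6 and 47.8 RPKM in Ctrl (1.85 ± 0.38, adjusted p = 0.0407 in limma). Pdia6, which also dampens IRE1 signalling, measured 210 and 247 RPKM in Gata3-KO, against 77.5 and 92.1 RPKM in Ctrl (1.42 ± 0.28, adjusted p = 0.0357). The difference after median-ratio scaling was 1.27 for Pdia4 and 0.83 for Pdia6, neither past the threshold. Pdia3 (ERp57), the partner of the lectin chaperones and a part of the MHC class I loading complex, measured 242 and 322 RPKM in Gata3-KO, against 110 and 132 RPKM in Ctrl (1.21, adjusted p = 0.0577). P4hb, the classical protein disulfide isomerase, showed a smaller difference of 0.74, with 136 and 184 RPKM in Gata3-KO against 85.4 and 104 RPKM in Ctrl. Fkbp11, a prolyl isomerase abundant in plasma cells, was the least even of the 40. It measured 32.1 and 14.4 RPKM in Gata3-KO, against 0.570 and 7.18 RPKM in Ctrl, and only 6 reads lay behind the lowest value. Its difference of 2.65 was the second largest of the 40 but came with an SE of 0.87 (adjusted p = 0.123 in limma).

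The lectin chaperones, which hold N-glycosylated proteins until they are folded, showed little beyond the median gene. Calr measured 242 and 265 RPKM in Gata3-KO, against 140 and 183 RPKM in Ctrl, and Canx 51.0 and 62.7 RPKM in Gata3-KO, against 37.9 and 37.4 RPKM in Ctrl. Differences of 0.66 and 0.58 on the deposited scale shrank to 0.07 and -0.01 after median-ratio scaling, where the groups overlapped. Neither passed in limma on either scale, and neither had an unadjusted p under 0.05.

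**Figure D3:**
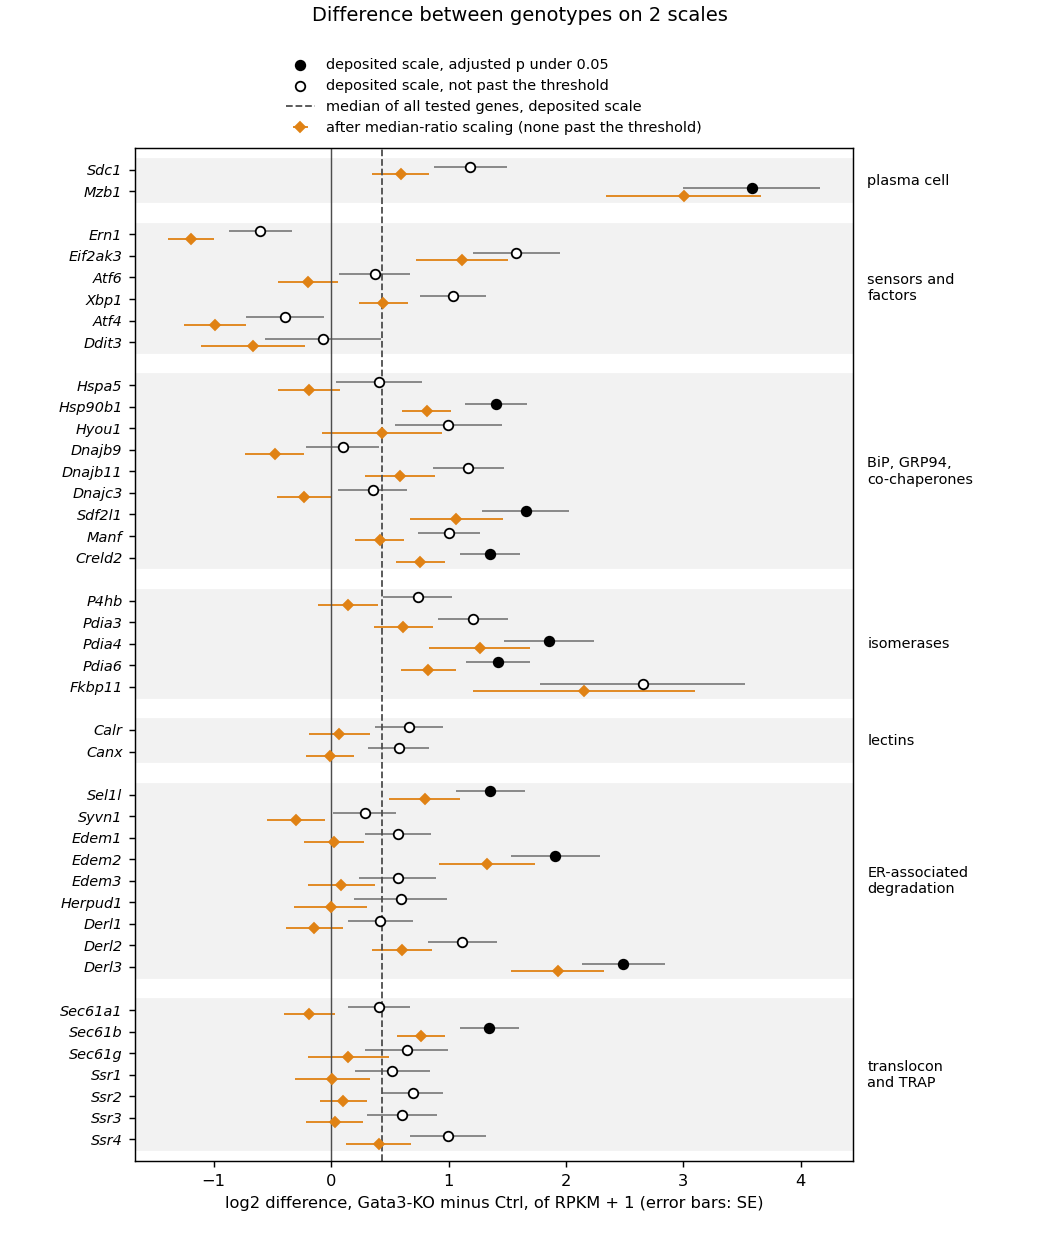
Log2 difference of each gene, Gata3-KO minus Ctrl, with its SE, on the deposited scale (circles, filled where the adjusted p is under 0.05) and after median-ratio scaling (orange diamonds), with the median gene of the deposited scale at 0.43 as a dashed line. The 10 filled circles all lie at 1.35 or above. After median-ratio scaling 28 of the 40 genes remain above 0, against 52.8% of all tested genes, and none passes the threshold.

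Of the 9 genes of ER-associated degradation 3 (33.3%) passed, against 8.2% of all genes, and members of 1 family lay on both sides of the threshold. The derlins are membrane proteins of the channel through which misfolded proteins leave the ER. Derl3, which is enriched in secretory tissues, measured 54.1 and 36.0 RPKM in Gata3-KO, against 5.50 and 8.98 RPKM in Ctrl (2.49 ± 0.35, adjusted p = 0.0210 in limma, the lowest of the 40). Derl2 measured 9.88 and 10.4 RPKM in Gata3-KO, against 4.34 and 3.94 RPKM in Ctrl (1.12, adjusted p = 0.0660), and the broadly expressed Derl1 20.1 and 17.7 RPKM in Gata3-KO, against 15.3 and 12.5 RPKM in Ctrl. The Derl1 difference was 0.42 as deposited and -0.14 after median-ratio scaling, where that of Derl3 was 1.93.

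The EDEM proteins hand glycoproteins over for degradation by trimming mannose. Edem2, which starts this trimming, measured 127 and 62.5 RPKM in Gata3-KO, against 23.1 and 22.8 RPKM in Ctrl (1.91 ± 0.38, adjusted p = 0.0374 in limma). Gata3-KO replicate 1 was 2.03 times Gata3-KO replicate 2, while the Ctrl libraries were nearly equal. Edem1 and Edem3 did not pass, with differences of 0.57 each on the deposited scale and of 0.03 and 0.09 after median-ratio scaling. Of the pair that forms the central ubiquitin ligase 1 passed. Sel1l, the adaptor, measured 26.2 and 24.5 RPKM in Gata3-KO, against 7.78 and 11.0 RPKM in Ctrl (1.36 ± 0.29, adjusted p = 0.0452). Syvn1, the ligase HRD1 itself, measured 79.0 and 86.4 RPKM in Gata3-KO, against 60.1 and 75.8 RPKM in Ctrl, a difference of 0.29 that turned to -0.30 after median-ratio scaling. Herpud1, a stress-induced organizer of that complex, was among the most abundant of the 40 with 904 and 1074 RPKM in Gata3-KO, against 883 and 483 RPKM in Ctrl, and its difference of 0.59 was -0.0036 after median-ratio scaling.

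Of the 7 translocon and TRAP subunits only Sec61b passed, a share of 14.3%, against 8.2% of all genes. Both Gata3-KO libraries lay above both Ctrl libraries in all 7 on the deposited scale, as in 53.9% of all genes. After median-ratio scaling they did so in 2 of the 7, near the 29.8% of all genes. Sec61b, the small tail-anchored subunit of the channel, measured 59.7 and 58.3 RPKM in Gata3-KO, against 23.2 and 22.02 RPKM in Ctrl (1.35 ± 0.25, adjusted p = 0.0339 in limma, and 0.77 after median-ratio scaling). Sec61a1, the channel pore, measured 189 and 173 RPKM in Gata3-KO, against 137 and 135 RPKM in Ctrl, a difference of 0.41 as deposited and of -0.18 after median-ratio scaling. Sec61g rested on few reads, between 35 in Ctrl and 164 in Gata3-KO. The TRAP subunits, which assist the entry of some signal peptides, ran between 0.52 (Ssr1) and 1.00 (Ssr4) and none passed. Ssr4 measured 170 and 143 RPKM in Gata3-KO, against 97.7 and 61.6 RPKM in Ctrl (adjusted p = 0.104), and after median-ratio scaling the TRAP differences ran between 0.01 (Ssr1) and 0.41 (Ssr4).

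The 10 genes that passed were therefore drawn from 5 of the 7 roles, and close partners fell on different sides of the threshold. Of the 9 genes with an ERSE in the promoter, 4 passed (Hsp90b1, Derl3, Creld2 and Pdia6), against 8.2% of all tested genes and 25% of the 40. The other 5 (Hspa5, Calr, Canx, Dnajc3 and Syvn1) did not. Of those 5 all but Calr had a difference below 0 after median-ratio scaling, where 52.8% of all tested genes lay above 0. The differences between partners (Derl3 and Derl1, Sel1l and Syvn1, Sec61b and Sec61a1) were not tested. The 10 calls lie on several chromosomes (GRCm38.p6), among them Derl3 at chr10:75893398-75895941, Hsp90b1 at chr10:86690841-86705444, Pdia6 at chr12:17266589-17284785, Sel1l at chr12:91806043-91849157, Edem2 at chr2:155701673-155729475, Pdia4 at chr6:47796141-47813512, Sdf2l1 at chr16:17130138-17132383, Creld2 at chr15:88819646-88826681 and Sec61b at chr4:47474661-47483233.

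Other genes of the secretory pathway were counted in lists of their own. Of 24 other luminal folding factors 5 were higher in Gata3-KO and none lower, with a median difference of 0.91, against 8.2% called and 0.43 for all genes. Among them Fkbp2, a prolyl isomerase, measured 145 and 123 RPKM in Gata3-KO, against 40.5 and 41.4 RPKM in Ctrl (1.68 ± 0.26, adjusted p = 0.0243 in limma). Selenom, a luminal selenoprotein, measured 51.9 and 68.8 RPKM in Gata3-KO, against 19.8 and 14.0 RPKM in Ctrl (1.78, adjusted p = 0.0292). Pdia5 and Fkbp7 were much lower in level, at 5.43 and 7.82 RPKM for Pdia5 in Gata3-KO against 0.928 and 1.05 RPKM in Ctrl, and 5.22 and 4.69 RPKM for Fkbp7 in Gata3-KO against 0.779 and 0.176 RPKM in Ctrl. At an unadjusted p under 0.05 in limma, 12 of the 24 were higher and 1 lower. Those counts were 7 and 3 after median-ratio scaling. Ero1a, named after its values were seen, differed by -1.14 (adjusted p = 0.0706 in limma) and by -1.64 after that scaling (adjusted p = 0.0658).

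In export from the ER 4 of 24 genes (16.7%) were higher, against 8.2% of all genes, and none was lower (median difference 0.66). These were the cargo receptor Lman1 (ERGIC-53), with 20.7 and 19.3 RPKM in Gata3-KO against 4.84 and 4.97 RPKM in Ctrl (1.83 ± 0.28, adjusted p = 0.0238 in limma), the COPII coat subunit Sec24d and the KDEL receptors Kdelr1 and Kdelr2, which return chaperones to the ER. Kdelr1 measured 44.4 and 36.5 RPKM in Gata3-KO, against 16.2 and 14.6 RPKM in Ctrl (1.33, adjusted p = 0.0383). Kdelr2 and Sec24d had differences of 1.15 and 1.26.

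The earlier steps gave fewer calls. Of 18 genes of signal peptide recognition and processing 1 was higher, Srp19 of the signal recognition particle (1.29, adjusted p = 0.0482 in limma), a share of 5.56%, which is below the background. Of 18 genes of N-glycosylation none was higher by limma or limma-voom, though 7 were at an unadjusted p under 0.05, and 1 was lower. That gene, Tusc3, a subunit of the oligosaccharyltransferase, measured 13.8 and 14.4 RPKM in Gata3-KO, against 41.0 and 32.3 RPKM in Ctrl. Its difference was -1.31 ± 0.27 (adjusted p = 0.0410 in limma) and -1.87 after median-ratio scaling (adjusted p = 0.0459), so it passed on both scales. Of 18 other genes of ER-associated degradation none passed in limma or limma-voom in either direction, with 2 higher at an unadjusted p under 0.05, and the median difference of 0.27 lay below the median gene.

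In the integrated stress response and ATF4 arm 2 of 23 genes (8.7%) were higher, close to the background. They were Phgdh, which starts serine synthesis (9.52 and 6.49 RPKM in Gata3-KO, 1.38 and 2.45 RPKM in Ctrl), and Pmaip1, which encodes the cell death protein NOXA and is also a target of p53 (85.1 and 46.6 RPKM in Gata3-KO, 12.7 and 7.55 RPKM in Ctrl). The median difference of that list was 0.10, which is 0.33 below the median gene (-0.33). None was called lower, and 5 were higher and 2 lower at an unadjusted p under 0.05 in limma. Those counts were 2 and 3 after median-ratio scaling. Both Gata3-KO libraries then lay below both Ctrl libraries in 10 of the 23, against 25.5% of all genes, and above in 5, against 29.8%. Atf3 and Cebpb, named after their values were seen, differed by -1.40 and -1.11 (adjusted p = 0.0902 and 0.0768 in limma). With median-ratio scaling they differed by -2.00 and -1.60. Of 18 other sensors and proteases 2 (11.1%) were higher, close to the 8.2% of all genes, the membrane-bound factor Creb3l4 (2.31 ± 0.45, adjusted p = 0.0357 in limma) and Bak1 (1.61 ± 0.32, adjusted p = 0.0364), which encodes a cell death effector.

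Plasma cell factors had the largest share of calls among these lists, with 8 of 16 higher (50%, against 8.2% of all genes). None was called lower, and the median difference was 2.23. Irf4, the factor that drives plasma cell formation, measured 24.6 and 14.0 RPKM in Gata3-KO, against 0.538 and 1.80 RPKM in Ctrl (3.24 ± 0.44, adjusted p = 0.0202 in limma). Pou2af1, a coactivator of immunoglobulin genes, measured 54.0 and 37.5 RPKM in Gata3-KO, against 1.69 and 5.08 RPKM in Ctrl (3.51 ± 0.45, adjusted p = 0.0191). Ly6c2 (3.53) and Cd38 (1.87) passed as well. In 15 of the 16 both Gata3-KO libraries lay above both Ctrl libraries, against 53.9% of all genes. Ell2, named after its values were seen, went the other way. It measured 14.2 and 14.0 RPKM in Gata3-KO, against 31.4 and 17.8 RPKM in Ctrl. Its difference was -0.71 as deposited and -1.27 after median-ratio scaling (adjusted p = 0.218 and 0.101 in limma). Prdm1, also named after its values were seen, did not pass (1.19, adjusted p = 0.0938 in limma). After median-ratio scaling none of the 22 genes called higher over these 8 lists passed, and the 1 lower, Tusc3, did.

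**Figure D4:**
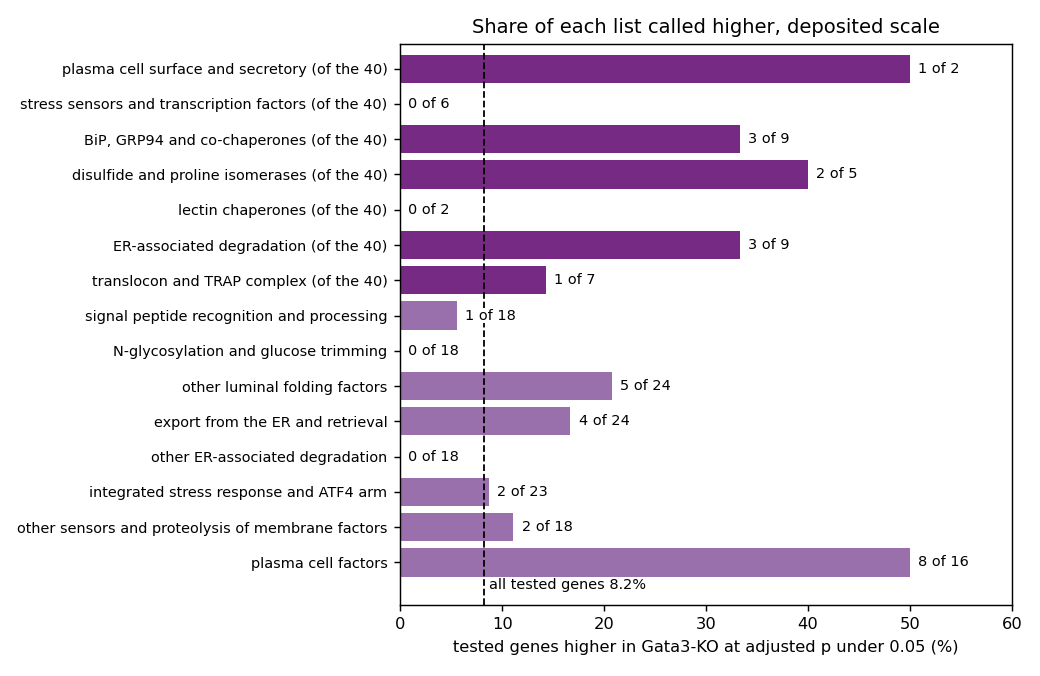
Share of tested genes called higher in Gata3-KO at an adjusted p under 0.05 on the deposited scale, for the roles among the 40 genes (dark bars) and for the other lists of the secretory pathway (light bars), with called and tested numbers at each bar and the 8.2% of all tested genes as a dashed line. Of the 15 bars 10 end above the line, from 8.7% (integrated stress response) to 50% (plasma cell genes and plasma cell factors), signal peptide genes end below it at 5.56%, and the stress sensors, lectin chaperones, N-glycosylation and other degradation genes have no gene called higher.

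Levels of plasma cell markers stand beside these results. Of 11 plasma cell markers 5 (45.5%) were higher in Gata3-KO, against 8.2% of all genes, and 1 (Ighm) after median-ratio scaling, against 0.565%. The list holds Sdc1, Mzb1, Xbp1, Derl3 and Fkbp11 of the 40 genes, and none of the 11 was at 0 in any library. Of the 5 calls, Mzb1 and Derl3 were counted among the 40, and Jchain and Irf4 among the plasma cell factors. Only Ighm is in neither count. Their summed level was 60483 and 22405 RPKM in Gata3-KO, against 3559 and 9237 RPKM in Ctrl. Most of it was Igha, the constant region of IgA, with 56209 and 20135 RPKM in Gata3-KO against 3053 and 8578 RPKM in Ctrl (2.72 ± 0.72, adjusted p = 0.0669 in limma). Jchain, which joins IgA into dimers, had 2128 and 793 RPKM in Gata3-KO against 144 and 289 RPKM in Ctrl. So Igha was 2.79 times higher in Gata3-KO replicate 1 than in Gata3-KO replicate 2, and 2.81 times higher in Ctrl replicate 2 than in Ctrl replicate 1.

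The same order of libraries was seen in 7 of the 40 genes, against 16.7% of all tested genes, and thus in a share near the background. The 7 were Mzb1, Derl3, Pdia4 and Sel1l, which passed the test, and Eif2ak3, Fkbp11 and Ssr1, which did not. Among the 10 called genes alone the order was thus seen in 4, against the same 16.7%. It was also seen in 12 of 16 plasma cell factors, 8 of 11 plasma cell markers (Igha included) and 7 of 8 T cell markers. Of the B cell and epithelial markers 1 of 10 and 0 of 14 had it. In Mzb1 both ratios were close to those of Igha, and in Derl3 they were 1.50 and 1.63. The other 6 calls did not follow Igha in both genotypes. Edem2 was 2.03 times higher in Gata3-KO replicate 1, as Igha was, and nearly equal in the Ctrl libraries. Sdf2l1 and Pdia6 were higher in Gata3-KO replicate 2, unlike Igha, but 1.92 and 1.19 times higher in Ctrl replicate 2, as Igha was. Hsp90b1, Creld2 and Sec61b differed by at most 1.08-fold within each genotype. Sums of epithelial markers were highest in Gata3-KO replicate 2, as were those of goblet and Paneth cells, secretory cells of the epithelium, with 6906 and 11956 RPKM in Gata3-KO against 4564 and 5612 RPKM in Ctrl. The part of plasma cell, B cell or epithelial RNA in the differences of the 40 genes was not tested.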

How the data were processed

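RNA of sorted LTi cells was extracted with a miRNeasy Micro kit and made into full-length Smart-seq2 libraries without molecular identifiers, per the labels' protocols. Subread, featureCounts and the mouse build mm10 are named in the submitters' processing notes, and the sources used here do not state versions, annotation, strand setting or treatment of multiply placed reads. The values deposited by the authors are log2(RPKM + 1), with 0.0001 added, as worked out from the values, with no scaling between libraries beyond their totals. No count table was used, so the planned fallback applied. Genotypes were compared on log2(RPKM + 1), pseudocount 1, by a two-sided test in limma 3.58.1 (R 4.3.3, variance trend, robust fit) with Benjamini-Hochberg adjustment over all tested genes and a threshold of 0.05. This scale understates changes of low genes.

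Whole reads were recovered from the steps between values, within 0.001 reads in all 4 libraries for 18978 of 19047 genes with reads (99.64%). They made up 98.86% and 98.72% of the Gata3-KO totals and 98.94% and 99.1% of the Ctrl totals, and served for the filter (at least 0.5226 CPM, which is 10 reads per library on average, in at least 2 libraries, and 15 reads in all), for scaling and for limma-voom. The Gata3-KO libraries were 1.79 times as deep as the Ctrl libraries on average. Log2 values of replicates correlated at 0.947 in Gata3-KO and 0.930 in Ctrl across genes, which are not independent replicates. Recovery and the fit were tested on simulated data.

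Symbols, positions and promoters came from RefSeq (GRCm38.p6), in which 25275 identifiers were found. The 40 genes and all gene lists were chosen with earlier results of these data known. All 40 genes are named, with fuller values for the calls and for Xbp1, Atf4, Atf6, Ern1, Eif2ak3, Ddit3, Hspa5, Sdc1 and Mzb1. Up to 4 called genes are named per further list, and genes outside this rule are marked as chosen after their values were seen. Alternatives were other scalings, limma-voom, a pseudocount of 0.1, filters of 5 CPM or none, a replicate block and leaving out each library. Protein sequences were not used here.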

Additional observations from a re-analysis of the deposited data

How the results depend on the processing

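On the deposited scale 10 of the 40 genes and 22 genes of the other secretory lists were called higher in Gata3-KO, with 1176 genes in all. In the same order the counts were 0, 0 and 81 after median-ratio scaling, 0, 0 and 89 after upper-quartile scaling, 2 (Derl3 and Hsp90b1), 5 and 182 with limma-voom on recovered reads, 0, 0 and 28 with limma-voom after median-ratio scaling, and 7, 13 and 777 with a pseudocount of 0.1. They were 16 (of 39 tested), 34 and 1595 with a filter of 5 CPM, and 0, 0 and 0 in limma with no filter, where 19047 genes were adjusted for and 4336 had an unadjusted p under 0.05. Against 98 genes called lower on the deposited scale, the same settings gave 62, 63, 37, 66, 69, 138 and 0. Against 1 secretory gene called lower they gave 1, 1, 0, 1, 0, 2 and 0. None of the 40 genes was called lower by limma or limma-voom in any setting. With 1 library left out, 0 of the 40 and 0 of the secretory genes were called in either direction on both scales, and the counts over all genes ran from 0 to 26 higher and from 0 to 7 lower. In those fits the lone library is assumed to vary like the other genotype and little is left to estimate the spread from, so their counts say little on stability. Without 1 library limma on the deposited scale gave 2401 to 3805 genes at an unadjusted p under 0.05.

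The replicate numbers are shared between genotypes, but same-numbered libraries did not deviate together (correlation -0.021 over genes), so they were not taken as pairs. With the replicate number as a block 3 of the 40 genes (Derl3, Mzb1 and Edem2), 15 secretory genes and 919 genes in all were called higher, and 0 secretory genes and 75 genes in all lower. With the block and median-ratio scaling the counts were 0, 0 and 18 higher, and 0 secretory genes and 7 genes in all lower. The number of the 40 genes with both Gata3-KO libraries above both Ctrl libraries was 34 as deposited and 19 after median-ratio scaling, and with both below 2 and 5. Over all tested genes the shares were 53.9% and 29.8% above, and 7.57% and 25.5% below.

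Directions of the log2 difference turned for 9 of the 40 genes after median-ratio scaling, with or without the block, at Atf6 -0.20, Hspa5 -0.19, Dnajb9 -0.48, Dnajc3 -0.23, Canx -0.0092, Syvn1 -0.30, Herpud1 -0.0036, Derl1 -0.14, Sec61a1 -0.18. With limma-voom and median-ratio scaling they were Atf6 -0.20, Hspa5 -0.19, Dnajb9 -0.51, Dnajc3 -0.24, Canx -0.0077, Syvn1 -0.30, Herpud1 -0.0064, Derl1 -0.16, Sec61a1 -0.19. After upper-quartile scaling the turned values were Atf6 -0.23, Hspa5 -0.23, Dnajb9 -0.52, Dnajc3 -0.27, Canx -0.045, Syvn1 -0.34, Edem1 -0.0084, Herpud1 -0.040, Derl1 -0.18, Sec61a1 -0.22, Ssr1 -0.022, Ssr3 -0.0056. With 1 library left out, over both scales, ranges that crossed 0 were Atf6 -0.41 to 0.65, Ddit3 -1.29 to 0.61, Hspa5 -0.42 to 0.71, Hyou1 -0.33 to 1.65, Dnajb9 -0.74 to 0.41, Dnajc3 -0.41 to 0.60, P4hb -0.095 to 0.96, Calr -0.22 to 0.86, Canx -0.10 to 0.72, Syvn1 -0.57 to 0.45, Edem1 -0.13 to 0.68, Edem3 -0.037 to 0.75, Herpud1 -0.38 to 1.03, Derl1 -0.28 to 0.56, Sec61a1 -0.31 to 0.47, Sec61g -0.20 to 0.95, Ssr1 -0.31 to 0.74, Ssr3 -0.19 to 0.88. For the 10 called genes no direction turned, but they had been called with differences of 1.35 or above. Median-ratio scaling lowered the differences of the 40 by only 0.467 to 0.596, so under it no called gene could turn. The cause of the turned directions was not tested.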

Other observations

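A pair of ER genes of the secretory epithelium, chosen after their values were seen, lay higher in Gata3-KO. Agr2, a disulfide isomerase needed for mucin folding in goblet cells, measured 398 and 698 RPKM in Gata3-KO, against 87.6 and 25.2 RPKM in Ctrl (log2 difference 3.45 ± 0.63, adjusted p = 0.0357 in limma, and 2.86 with an adjusted p of 0.0831 after median-ratio scaling). Ern2, the form of IRE1 found in the gut epithelium, measured 6.64 and 14.6 RPKM in Gata3-KO, against 1.13 and 2.84 RPKM in Ctrl, and did not pass (1.93 ± 0.49, adjusted p = 0.0603 in limma). Both were highest in Gata3-KO replicate 2, where Krt8, a keratin of simple epithelia, measured 665 RPKM, against 450 RPKM in Gata3-KO replicate 1 and 123 and 76.9 RPKM in Ctrl. Igha and Jchain were highest in Gata3-KO replicate 1. The part of epithelial RNA in these values was not tested.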
